A study of Mus musculus with 6 samples.

Results

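The whole path from blood progenitors to double positive thymocytes was read by setting 2 arrays of DP cells against 2 arrays of HSC cells, which are 4 of the 6 arrays of the study. Signal was compared for 19939 genes, taking for each gene the probe set with the highest mean among those assigned to that gene alone. The HSC samples were mouse bone marrow cells transduced with NUP98-HOXB4, a fusion protein that lets blood progenitors keep dividing in culture, and expanded in vitro with IL6 and SCF. The DP samples were double positive T cells, thymocytes that carry CD4 and CD8 together, which arose from the same kind of transduced cells after growth with IL7 and the Notch1 ligand DLL4 and injection into Rag2-/- mice. The remaining 2 arrays held ProT cells, grown with IL7 and DLL4 but not injected, and they serve here as the point between both ends. All 3 populations thus carried the fusion protein, and DP differed from HSC in culture, cytokines and passage through a host as well as in stage. Rag2-/- hosts make no mature T or B cells of their own, while their thymic stroma and myeloid cells remain. Age, sex and strain of the donors and hosts, whether the paired arrays came from separate cultures or animals and how the DP cells were isolated from the host, are not given in the labels, so p-values measure the spread between these arrays alone, and that spread may be technical.

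Stem and progenitor cells of the blood hold several fates open under transcription factors such as PU.1, GATA2 and LMO2, and they listen to growth factors through receptors such as KIT. Notch signalling in the thymus turns such cells towards the T lineage, where they first rearrange the T cell receptor beta chain and assemble it with the CD3 chains. Cells that pass this step divide, switch on CD4 and CD8 and then come to rest as double positive thymocytes, which rearrange the alpha chain with RAG1 and RAG2 and wait to be selected. Double positive thymocytes are small, quiet cells with low metabolic activity, whereas expanded progenitors are large, dividing ones.

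Over the whole path 6953 of 19939 genes (34.9%) changed at an adjusted p below 0.05 in limma, which compares each difference with the spread between replicate arrays. Of these, 3195 (16.0% of all genes) rose and 3758 (18.8%) fell in DP. A change of at least 2-fold was found for 1021 called genes (5.12%) that rose and 1727 (8.66%) that fell. Changes of at least 16-fold were about equally frequent in both directions, with 87 rises and 75 falls, but of changes of at least 64-fold 21 were rises and 7 were falls. The median log2 change over all genes was 0.02. The HSC arrays did not overlap with the DP arrays in signal for 67.9% of all genes, and of the genes above background on both arrays of either population 48.3% were called. Of those genes above background 21.6% rose and 26.6% fell. The shares of all genes set beside gene lists below include genes at background, which were called less often. The 95% interval of the difference lay within 2-fold in either direction for 15423 genes (77.4%). Without DP replicate 1 the called rises dropped from 3195 to 1982, and without DP replicate 2 to 1940 with 2361 falls.

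**Figure D1:**
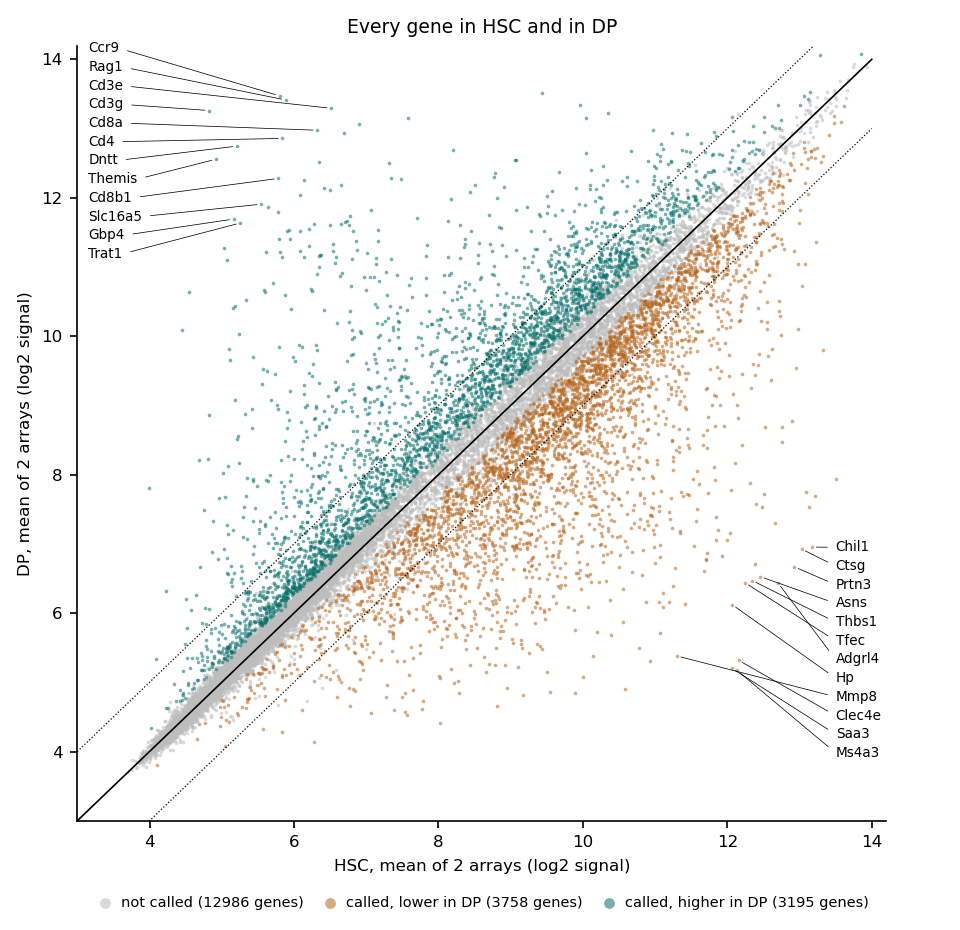
Mean log2 signal of each gene in HSC (horizontal) and in DP (vertical), 2 arrays each. Teal points are the 3195 genes called higher in DP, brown points the 3758 called lower, grey points the rest, dotted lines mark a 2-fold difference, and the 12 largest rises and falls are named.

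The replicate arrays set the precision of these differences. No gene differed at least 2-fold between the 2 DP arrays, against 204 genes between the 2 HSC arrays and 144 between the 2 ProT arrays. The Pearson correlation across all probe sets was 0.997 between the DP arrays and 0.991 between the HSC arrays, and lay between 0.933 and 0.938 between an HSC and a DP array. A background level for dim genes was taken on each array as the 95th percentile of 1212 olfactory, vomeronasal and taste receptor genes, which blood cells do not use as a class, and it lay between 5.92 and 6.06. Of these receptor genes 14 rose (9 without DP replicate 1, 1 without DP replicate 2) and 2 fell (0 without either DP array), 1.32% in all. A fold is given as "at least" where the dimmer population was at that level on both arrays, and with the median of all gene values as the level the folds of the 45 named genes of this kind were 2.24 to 2.35 times smaller.

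Of the markers of both labelled cell types all but 1 differed in the direction of the labels. All 10 measured markers of double positive thymocytes rose in DP, and their median signal was 6.11 and 6.12 on the HSC arrays and 12.81 and 12.79 on the DP arrays. Of 10 measured progenitor markers 9 fell, from medians of 10.92 and 10.52 to 7.86 and 7.90. Procr, a stem cell surface marker, did not pass, with 6.13 and 6.13 in HSC and 6.17 and 6.08 in DP, just above background in both. Kit, the SCF receptor, fell from 11.33 and 11.17 to 8.77 and 8.64, and Hoxa9, a homeobox factor, from 10.88 and 11.001 to 10.44 and 10.40. All 10 progenitor markers stayed above background on both DP arrays. In bulk samples fewer cells of a type and less RNA per cell cannot be told apart.

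Markers of other cell types also differed, in both directions, and are given here because they bear on every gene that those cells share. All 6 granulocyte and monocyte markers were above background on the HSC arrays and fell with the progenitor markers, from medians of 12.74 and 13.01 in HSC to 7.53 and 7.31 in DP. Of 3 NK cell markers 1 rose and 1 fell, and of 3 mast cell markers 1 fell. All 5 measured thymic epithelial markers rose, with medians of 6.03 and 5.93 in HSC and 6.66 and 6.68 in DP. Ccl25, the chemokine with which thymic epithelium attracts progenitors, had signals of 7.51 and 7.73 in HSC and 10.88 and 10.80 in DP, and Krt8, an epithelial keratin, 7.31 and 7.35 in HSC and 9.51 and 9.55 in DP. Foxn1, the master factor of thymic epithelium, had 5.67 and 5.61 in HSC and 6.38 and 6.36 in DP, the latter just above background. Of 5 macrophage markers 3 rose and 1 fell: C1qb, a complement chain made by macrophages, had 6.03 and 6.39 in HSC and 9.56 and 9.37 in DP, whereas Adgre1, which encodes F4/80, fell from 9.15 and 10.18 to 7.10 and 7.13 and Cd163 was at background throughout. Of the 3 B cell markers measured all rose, led by Cd79a, a B cell receptor chain, at 4.88 and 4.84 in HSC and 7.01 and 6.77 in DP, while Ebf1 was at background in both populations. The remaining B cell marker rose by only 0.29 ± 0.086 (adjusted p = 0.047 in limma), from 6.29 and 6.37 to 6.56 and 6.67. Alas2, a heme enzyme of red cell precursors, had 5.93 and 5.84 in HSC and 8.53 and 8.44 in DP. The 3 of 5 fibroblast and endothelial markers that rose were Cdh5, Pecam1 (not called without either DP array) and Pdgfra (not called without HSC replicate 2 or either DP array), the last at 6.23 and 6.21 in DP, and Col1a1 and Col3a1 did not pass. The part of such cells in the differences below was not tested.

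**Figure D2:**
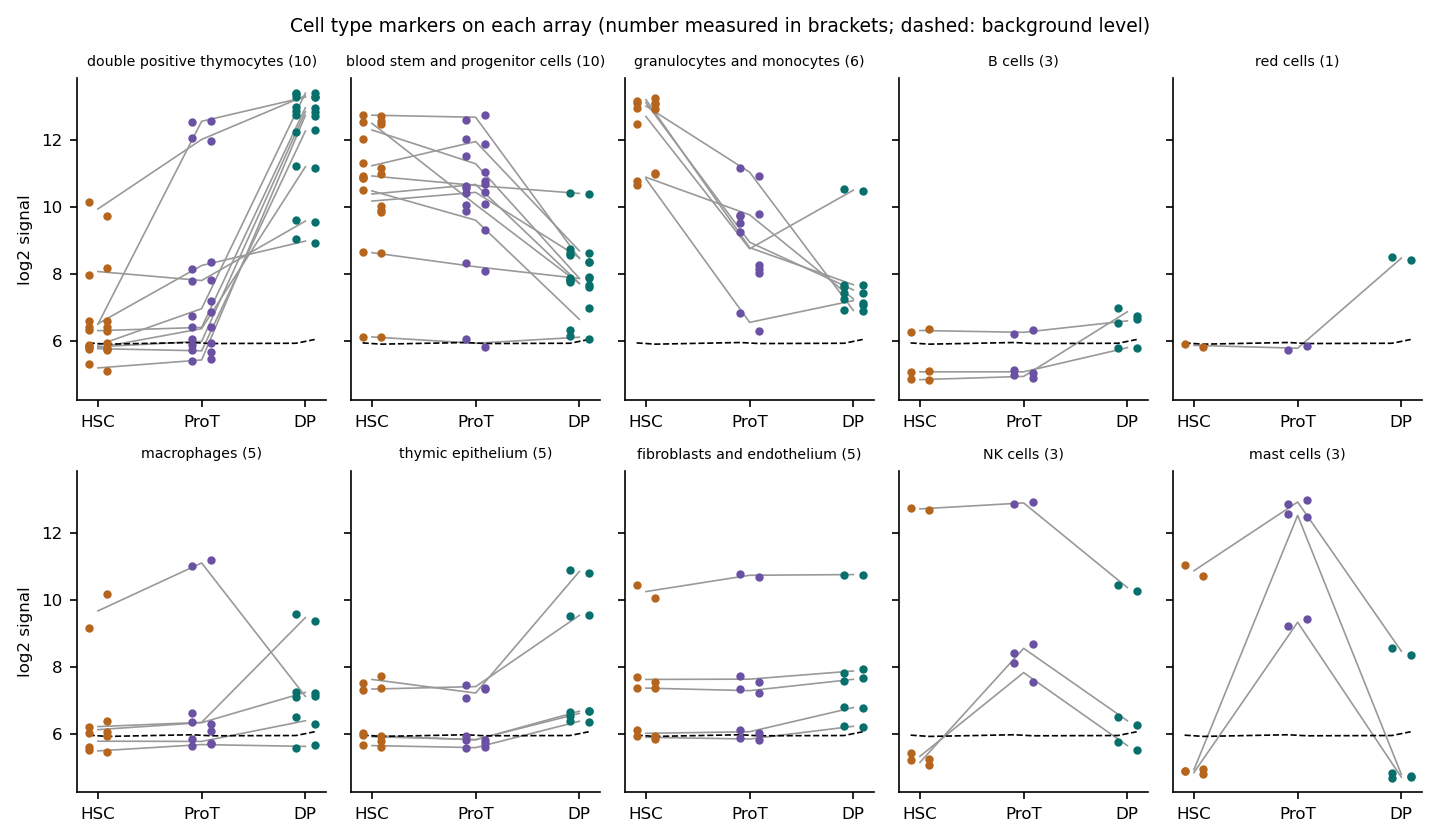
Log2 signal of the measured markers of 10 cell types on each array, with 2 points per population and a line through the means, and the background level dashed. Markers of double positive thymocytes rise to medians of 12.81 and 12.79 in DP, while 9 of 10 progenitor markers and all 6 granulocyte and monocyte markers fall. Of 5 macrophage markers 3 rise and 1 falls, and thymic epithelial markers sit higher in DP than in HSC and ProT.

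The T cell receptor complex held the largest called rise of all genes, that of Cd3g. All 5 measured chains rose, with a median log2 change of 5.61 against 0.02 over all genes. Cd3g, the gamma chain of CD3, had signals of 4.91 and 4.74 in HSC and 13.24 and 13.28 in DP, a rise of 8.43 ± 0.087 on the log2 scale (moderated SE, adjusted p = 8.22e-07) and at least 160.2-fold higher. Its signal went from background on both HSC arrays to near the top of the scale on both DP arrays. Cd3e rose from 6.42 and 6.60 to 13.29 and 13.29 and Cd3d from 5.88 and 5.70 to 11.44 and 11.36. Cd247, the zeta chain that carries most of the signalling motifs of the receptor, rose by 5.10 ± 0.095, from 6.59 and 6.40 to 11.61 and 11.59. Ptcra, the surrogate alpha chain of the pre-receptor that double positive cells give up, had the smallest change of the chains, 6.62 and 6.44 in HSC and 9.05 and 8.94 in DP, 5.53-fold higher.

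Variable segments of the receptor loci rose as well. All 6 measured Trav segments, which belong to the alpha chain, rose, with a median log2 change of 3.23. Trav14-1 had signals of 4.55 and 4.55 in HSC, 7.09 and 6.83 in ProT and 10.72 and 10.57 in DP, and was at least 26.1-fold higher in DP than in HSC. Trav7n-5 had 4.39 and 4.498 in HSC, 4.71 and 4.51 in ProT and 10.16 and 10.02 in DP, at background in HSC and ProT and at least 17.8-fold higher in DP than in HSC. Trbv1, a beta chain segment, rose by 3.53 ± 0.076, and Trgv1, a segment of the gamma chain, was at 5.12 and 4.95 in HSC, 12.55 and 12.72 in ProT and 11.31 and 11.23 in DP. Trgv1 thus had a lower signal in DP than in ProT and a far higher one than in HSC. Segments of one locus have near-identical neighbours, so the signal of 1 segment can include that of its relatives.

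The machinery that cuts and joins these segments rose with them: of 15 measured recombination and end joining genes 10 rose and 1 fell (2 without HSC replicate 1 or either ProT array). Rag1, the cutting subunit of the recombinase, had 5.83 and 5.94 in HSC and 13.41 and 13.41 in DP, a rise of 7.53 ± 0.15, 184-fold higher, with 1 of the 2 HSC arrays at background. Its partner Rag2, which the host mice lack, had 5.89 and 5.73 in HSC and 11.24 and 11.19 in DP. Dntt, the polymerase that adds untemplated bases at the joints, was at 5.32 and 5.10 in HSC and 12.75 and 12.74 in DP, at least 112-fold higher, and was still at background in ProT at 5.43 and 5.47. Among the joining factors Lig4, the ligase of end joining, rose by 3.53 ± 0.16, and the Ku subunits Xrcc6 and Xrcc5 by 2.23 ± 0.097 and 1.75 ± 0.094. Prkdc, the kinase that Ku recruits, did not pass, with 9.34 and 8.94 in HSC and 8.98 and 8.94 in DP, a log2 difference with a 95% interval of -0.77 to 0.41. Poll, a polymerase of the same pathway, fell by 1.42 ± 0.16.

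Proximal signalling genes carry the receptor's message inside the cell. Of 23 measured members 21 rose and the other 2 did not pass, with a median log2 change of 1.64. Themis, an adaptor that thymocytes need during selection, rose by 7.64 ± 0.40, from 4.79 and 5.05 to 12.59 and 12.52. Rasgrp1, which links the receptor to RAS, rose by 6.23 ± 0.31, and the scaffold Lat had 8.07 and 7.10 in HSC and 13.19 and 13.10 in DP. Prkcq and Grap2, a kinase and an adaptor of the same chain, rose by 5.60 and 5.53. Zap70, the kinase that binds the phosphorylated zeta chain, was at 6.87 and 6.30 in HSC and 11.16 and 11.13 in DP, 23.6-fold higher. The TEC kinase Txk was at 5.89 and 5.997 in HSC, 11.498 and 11.65 in ProT and 11.41 and 11.39 in DP, so its ProT signal stood no lower than that of DP. The members that did not pass were Ptpn6 and Cblb, both negative regulators. Ptpn6 had 11.24 and 11.497 in HSC and 11.43 and 11.39 in DP. Cblb had 10.58 and 10.88 in HSC and 10.72 and 10.74 in DP.

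Co-receptors and other surface proteins of thymocytes followed: 21 of 23 rose and 1 fell, with a median log2 change of 3.58. Cd4 had 5.88 and 5.80 in HSC and 12.87 and 12.84 in DP, at least 121-fold higher, Cd8a 6.34 and 6.31 in HSC and 12.996 and 12.96 in DP, 101-fold higher, and Cd8b1 5.78 and 5.79 in HSC and 12.25 and 12.31 in DP. The 3 genes that give the stage its name thus stood on both DP arrays between 12.25 and 12.996. Cd2, an adhesion receptor, rose by 6.22 ± 0.079 and its relative Slamf6 by 5.72 ± 0.11. Sh2d1a, which encodes the SLAM adaptor SAP, was at background in HSC and ProT and at 11.13 and 11.06 in DP. Ly6d, a small surface protein of early lymphoid cells, rose by 6.16 ± 0.20. Cd69, an activation marker that appears during selection, did not pass, with 10.06 and 10.06 in HSC and 10.29 and 10.27 in DP. Cd53, a tetraspanin of white blood cells, was the member that fell, by 0.45.

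Genes typical of double positive thymocytes rose in 24 of 25 cases, with a median log2 change of 5.19, and 23 of the rises at least 2-fold. This list was written with results of these arrays known and its direction is no independent evidence. Ccr9, the receptor for CCL25 that holds thymocytes in the thymic cortex, had 5.85 and 5.75 in HSC and 13.49 and 13.45 in DP, at least 186-fold higher. Trat1, a receptor-associated adaptor, rose by 6.38 ± 0.21. Tnfaip8, the member that did not pass, had 9.88 and 9.95 in HSC and 9.98 and 9.79 in DP. Beyond the lists, Gbp4, an interferon-inducible GTPase, rose from 5.16 and 5.17 to 11.68 and 11.71, and Slc16a5, a member of the monocarboxylate transporter family, from 5.53 and 5.56 to 11.92 and 11.90. Both were at background in HSC and ranked among the 12 largest rises.

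**Figure D3:**
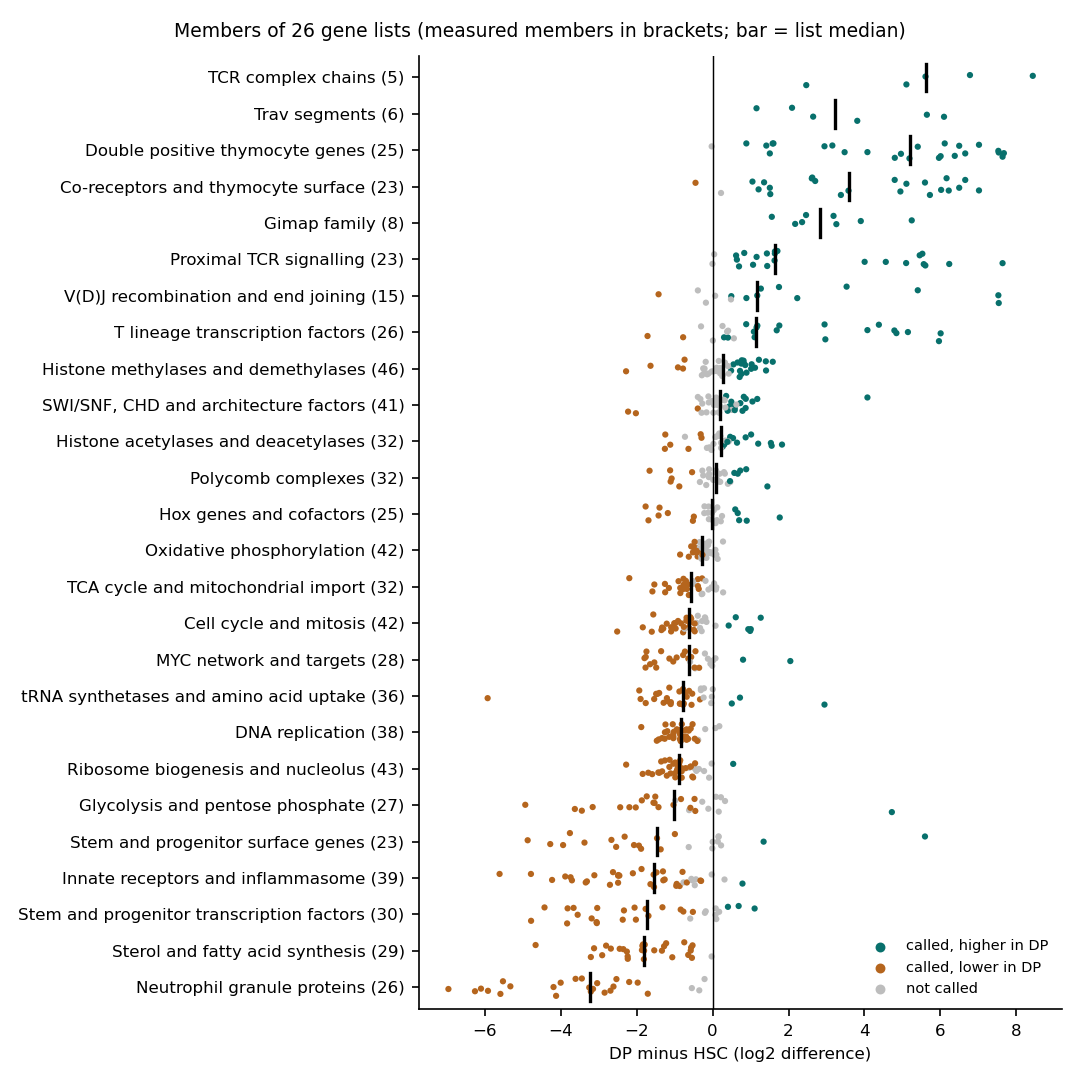
Log2 difference between DP and HSC for each measured member of the gene lists, ordered from receptor genes at the top to granule proteins at the bottom, with the list median as a bar. The T cell receptor chains have a median of 5.61, the neutrophil granule proteins one of -3.23, and the oxidative phosphorylation genes lie close to 0 with a median of -0.27.

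Chemokine receptors and trafficking genes changed in both directions, 13 rising (8 without DP replicate 2) and 10 falling of 33. The rises were 39.4% of the list and the falls 30.3%, against 16.0% and 18.8% of all genes. Of genes above background, as 28 of the 33 were, 21.6% rose and 26.6% fell. The receptors Ccr9, Ccr4 and Ccr7 rose by 7.67, 5.43 and 3.98 on the log2 scale. Ccr4 had signals of 6.12 and 6.05 in HSC, 10.15 and 9.999 in ProT and 11.56 and 11.47 in DP. Ccr7 had 7.11 and 7.17 in HSC, 9.11 and 8.84 in ProT and 11.13 and 11.12 in DP, so both lay between the ends in ProT. The receptors of neutrophils and monocytes fell instead, Cxcr2 from 10.04 and 9.95 to 4.99 and 5.16, Ccr2 from 11.53 and 11.90 to 6.67 and 7.06 and Ccr1 by 3.44. Gimap genes, GTPases that support lymphocyte survival, rose in 8 of 8 cases, led by Gimap4 with 5.14 and 5.24 in HSC, 9.53 and 9.55 in ProT and 10.49 and 10.38 in DP, and Gimap3 rose by 3.90. Other genes of mature T cells rose in 27 of 35 cases and fell in 1. Among those that did not pass was the integrin gene Itgb7, with 8.64 and 7.90 in HSC and 8.61 and 8.62 in DP.

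Transcription factors of the T lineage rose while those of stem and progenitor cells fell. Of 26 T lineage factors 18 rose and 2 fell. Ikzf3, an Ikaros family factor of later lymphoid cells, had 5.83 and 5.74 in HSC and 11.84 and 11.74 in DP, at least 57.8-fold higher, and Lef1, a partner of beta-catenin, 6.18 and 5.98 in HSC and 11.96 and 12.12 in DP. Gata3, which T cells need at several stages, was at 6.03 and 6.13 in HSC, 11.96 and 11.96 in ProT and 11.28 and 11.18 in DP. Ets1 and Bcl11b, factors of T cell identity, rose by 4.79 ± 0.098 and 4.38 ± 0.077, and Tox, needed for the CD4 lineage, by 4.84 ± 0.082. Runx3 and Zbtb7b, which direct the later CD8 and CD4 fates, were the members that fell, by 1.72 ± 0.13 and 0.78 ± 0.12.

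Of 30 stem and progenitor factors 20 fell and 3 rose, with a median log2 change of -1.73. Lmo2, a bridging protein of stem cell factor complexes, fell from 12.54 and 12.48 to 7.82 and 7.63, 27.5-fold lower. Spi1, which encodes PU.1, fell from 12.04 and 12.59 to 7.89 and 7.88, by 4.43 ± 0.22. Gata2 fell by 3.83 ± 0.37, with HSC arrays of 10.94 and 10.05 further apart than those of most genes named here. Hhex, Erg and Lyl1, factors of early progenitors, fell by 3.82, 3.66 and 3.56. The members that rose, Sox4, Ldb1 and Runx1, are also used in thymocytes, and their log2 changes were 1.11, 0.69 and 0.40, the last not called without HSC replicate 1 or either DP array.

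Hox genes and their cofactors, the family to which the fusion protein belongs, were split: 5 of 25 rose, 7 fell and 13 did not pass, with a median log2 change of -0.02. Both shares were near those of genes above background, of which 21.6% rose and 26.6% fell. Hoxb4 itself fell from 8.51 and 9.20 to 7.05 and 7.13, and its neighbours Hoxb3 and Hoxb5 fell by 1.42 and 1.40. Whether the Hoxb4 probe set also reads the fusion transcript is not known from the files. In the Hoxa cluster Hoxa5 and Hoxa6 rose by 0.90 ± 0.072 and 0.66 ± 0.19, the second not called without either ProT or either DP array, while Hoxa9 fell by 0.52 ± 0.079. Meis1, the cofactor of Hoxa9 in progenitors, fell by 1.69 ± 0.22, and Meis3 rose by 1.77 ± 0.092. Nup98, the gene of the fusion's other partner, fell by 0.495 ± 0.077.

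Surface genes of stem and progenitor cells fell in 14 of 23 cases and rose in 2, with a median log2 change of -1.47. Csf2rb, the shared beta chain of the IL3, IL5 and GM-CSF receptors, fell from 11.82 and 12.24 to 7.24 and 7.08, 29.3-fold lower. Cd34, a progenitor sialomucin, was at 12.77 and 12.74 in HSC, 12.62 and 12.77 in ProT and 8.57 and 8.38 in DP, so that its signal was as high in ProT as in HSC. Cd93 and Cd33 fell by 3.94 ± 0.10 and 3.38 ± 0.14. The members that rose were Slamf1, which stem cells and thymocytes share, by 5.59, and Il6st, the IL6 receptor's signalling chain, by 1.34.

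Of 30 genes of cytokine receptors and their signalling 14 (46.7%) rose and 10 (33.3%) fell, against 16.0% and 18.8% of all genes. Of genes above background, as all 30 were, 21.6% rose and 26.6% fell. Il7r, the receptor for the IL7 of the ProT culture, had 6.27 and 6.44 in HSC, 11.26 and 11.78 in ProT and 11.20 and 11.13 in DP, a rise of 4.81 ± 0.17 over the whole path. Il2ra, the alpha chain of the IL2 receptor, had 5.71 and 6.99 in HSC, 13.08 and 13.06 in ProT and 10.94 and 11.05 in DP, a rise of 4.65 ± 0.38. Both were near or above 11 on the DP arrays. The receptors of myeloid growth factors fell, Csf3r from 10.99 and 11.13 to 6.18 and 6.15, 29.7-fold lower, and Csf1r from 10.68 and 11.03 to 7.28 and 7.16. The feedback inhibitors Socs2 and Cish did not pass between the ends of the path. Socs2 had 7.08 and 6.60 in HSC, 11.60 and 11.61 in ProT and 6.68 and 6.69 in DP. Cish had 8.02 and 7.76 in HSC, 10.30 and 10.59 in ProT and 7.89 and 7.40 in DP, so both had their highest signal in ProT.

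Of 27 genes of the Notch pathway and its targets 10 rose and 5 fell in DP (3 without either DP array). The rises were 37.0% of the list and the falls 18.5%, against 16.0% and 18.8% of all genes. Of genes above background, as all 27 were, 21.6% rose and 26.6% fell. Dtx1, a target and regulator of Notch, was at 7.51 and 7.41 in HSC, 11.46 and 11.15 in ProT and 9.42 and 9.32 in DP. Hes1, the classical target repressor, was at 5.66 and 5.95 in HSC, 9.54 and 9.78 in ProT and 7.02 and 6.82 in DP. Their rises over the whole path were 1.91 ± 0.12 and 1.12 ± 0.14, and both were highest in ProT, where DLL4 was present in the culture. The receptors moved apart: Notch1 and Notch3 rose by 1.33 ± 0.084 and 1.495 ± 0.13 while Notch2 fell by 1.20 ± 0.11. Nrarp, a feedback target, was at 8.04 and 7.36 in HSC, 10.003 and 9.80 in ProT and 6.79 and 6.69 in DP and fell by 0.96, a call lost without either DP array.

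Neutrophil granule proteins showed the largest median fall of the lists, -3.23, with 23 of 26 members lower in DP. These are the enzymes and antimicrobial proteins that myeloid precursors pack into granules. The median signal of the members was 10.13 and 10.47 on the HSC arrays, and single members lay anywhere from background, as Bpi did, to above 13. Ms4a3, a membrane protein of granulocyte and monocyte precursors, had 11.86 and 12.41 in HSC and 5.10 and 5.25 in DP, a fall of 6.96 ± 0.42 and at least 70.2-fold lower (adjusted p = 0.000104). The serine proteases Prtn3, Ctsg and Elane fell by 6.26 ± 0.34, 6.10 ± 0.10 and 5.52 ± 0.44, and Mpo, the granule peroxidase, by 5.59 ± 0.48. Ctsg was at 12.98 and 13.08 in HSC, 11.17 and 10.93 in ProT and 6.94 and 6.91 in DP, while Elane had 9.54 and 8.06 in ProT, its arrays further apart. Mmp8, the neutrophil collagenase, fell from 10.80 and 11.80 to 5.41 and 5.35, which is background. Lyz2, the lysozyme of myeloid cells, kept the highest DP signal among the members that fell, 10.55 and 10.48, down from 12.49 and 12.94. Mmp9, Lyz1 and Bpi did not pass.

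The 250 bases upstream of the starts of 4 of these genes are printed because they belong to the largest falls of the path and share a short element. They are from RefSeq on build GRCm38.p6, written from base -250 to -1 of the gene's strand. Capitals mark the letters GAGGAA, or TTCCTC on the other strand, which hold the GGAA core that ETS factors such as PU.1 bind. The window of Elane lies at chr10:79886062-79886311 and Prtn3 at chr10:79879417-79879666, both on the plus strand, that of Ctsg at chr14:56102575-56102824 on the minus strand and that of Mpo at chr11:87793534-87793783 on the plus strand.
Elane: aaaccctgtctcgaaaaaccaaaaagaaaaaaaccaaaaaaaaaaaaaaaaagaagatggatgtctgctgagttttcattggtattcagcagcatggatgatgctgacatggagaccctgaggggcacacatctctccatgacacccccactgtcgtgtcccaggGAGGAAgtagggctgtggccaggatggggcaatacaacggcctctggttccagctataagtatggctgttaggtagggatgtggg
Prtn3: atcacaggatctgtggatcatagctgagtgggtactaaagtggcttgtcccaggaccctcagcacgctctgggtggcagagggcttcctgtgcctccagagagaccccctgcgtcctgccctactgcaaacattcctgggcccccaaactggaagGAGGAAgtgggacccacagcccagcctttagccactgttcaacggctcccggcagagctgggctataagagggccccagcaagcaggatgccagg
Ctsg: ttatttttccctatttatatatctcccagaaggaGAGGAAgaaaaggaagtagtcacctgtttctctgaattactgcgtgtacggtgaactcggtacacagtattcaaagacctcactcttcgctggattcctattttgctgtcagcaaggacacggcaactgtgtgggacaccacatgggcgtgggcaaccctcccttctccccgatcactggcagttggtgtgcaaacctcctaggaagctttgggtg
Mpo: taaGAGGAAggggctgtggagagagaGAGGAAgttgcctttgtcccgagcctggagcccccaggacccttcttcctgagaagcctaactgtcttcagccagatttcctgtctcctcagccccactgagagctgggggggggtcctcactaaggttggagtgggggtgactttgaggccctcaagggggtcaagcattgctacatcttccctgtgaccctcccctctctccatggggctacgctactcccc
The letters occurred once in the windows of Elane, Prtn3 and Ctsg, and at 2 places in that of Mpo. Of the 26 measured granule genes 24 had a RefSeq window, and 15 of these (62.5%) held GAGGAA on either strand, beside 23.1% of all 27025 promoters of the same length. Among called genes at least 4-fold lower in DP the share was 31.4%, and among those at least 4-fold higher 27.2%. A match of letters is a description of the sequence and not a bound site.

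Other myeloid genes fell with the granule proteins. Of 39 monocyte and macrophage genes 21 fell and 10 rose. Clec4e, a lectin that senses mycobacteria, fell from 12.01 and 12.30 to 5.09 and 5.54, at least 71.2-fold lower. Ccr2 and Cybb, a chemokine receptor and the catalytic chain of the phagocyte oxidase, fell by 4.85 ± 0.22 and 4.07 ± 0.40. The members that rose included the complement chains C1qb and C1qc, by 3.25 and 2.39, and Apoe, a lipid carrier of macrophages, by 1.37. Among the other largest falls, Saa3, an acute phase protein, had 11.84 and 12.29 in HSC and 5.22 and 5.18 in DP, and Chil1, a chitinase-like secreted protein, 12.99 and 13.36 in HSC and 7.04 and 6.87 in DP. Hp, which encodes haptoglobin, and Adgrl4, an adhesion receptor, fell by 5.94 and 6.27. Tfec, a myeloid transcription factor, fell by 5.81 and Thbs1, a matrix protein made by platelets and macrophages, by 5.87.

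Innate receptor and inflammasome genes fell in 31 of 39 cases (17 without either DP array) and rose in 1 (2 without HSC replicate 2), with a median log2 change of -1.54. Trem3, a receptor of myeloid cells, fell from 10.55 and 11.29 to 5.37 and 5.25, at least 30.3-fold lower, and Irak3, an inhibitor of Toll-like receptor signalling, by 4.79 ± 0.20. Casp1, the inflammasome protease, fell by 3.71 ± 0.089, to 6.17 and 5.997 in DP. Pycard, the inflammasome adaptor, was the member that rose, by 0.79 ± 0.073. Lysosomal genes fell in 23 of 38 cases (14 without DP replicate 2) and rose in 7, led by Gla, Asah1 and Grn with log2 changes of -3.01, -2.71 and -2.60. Lipa and Ctsl, a lipase and a protease, rose by 1.48 and 1.26.

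Genes of growth and division were lower in DP. All 38 measured replication genes except 4 fell, with a median log2 change of -0.84. Orc1, the largest subunit of the origin recognition complex, fell by 1.88 ± 0.11, and Mcm10, Pole and Mcm3, a loader, a polymerase and a helicase subunit, by 1.47, 1.42 and 1.33. The members that did not pass were Pcna, Rpa1, Tyms and Prim2. Pcna, the sliding clamp, had 12.46 and 12.79 in HSC and 12.80 and 12.81 in DP, with a 95% interval of -0.12 to 0.47 for the difference.

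Cell cycle and mitosis genes fell in 26 of 42 cases (16 without DP replicate 2) and rose in 6 (2 without either DP array). Ccnd1, the D cyclin of progenitors, fell from 10.30 and 10.27 to 7.69 and 7.86 and Mybl2, a factor of dividing cells, by 1.84 ± 0.12. Cdk6, the kinase partner of D cyclins in blood cells, fell by 1.35 ± 0.086. Of the 6 that rose, 3 encode inhibitors of cyclin-dependent kinases, and Cdkn1b, which encodes p27, rose by 1.27 ± 0.14, from 10.86 and 11.11 to 12.23 and 12.27. The others were Cdkn2d and Cdkn2c, Ccnd3, the D cyclin of thymocytes, and the pocket proteins Rb1 and Rbl2, and Cdkn2d, Cdkn2c, Rb1 and Rbl2 were not called without either DP array. Mki67, the proliferation antigen, did not pass and stayed high, at 12.13 and 12.18 in HSC and 11.97 and 11.95 in DP.

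MYC and its targets fell in 18 of 28 cases, and 2 rose. Myc had 12.61 and 12.19 in HSC and 11.08 and 11.005 in DP, a fall of 1.36 ± 0.14, and its target Srm, the spermidine synthase, fell by 1.80 ± 0.15. Mxd4 and Mxd3, antagonists of MYC, were the members that rose, by 2.05 ± 0.15 and 0.80 ± 0.089. Ribosome biogenesis genes fell in 35 of 43 cases (22 without DP replicate 1, 18 without DP replicate 2) and rose in 1 (0 without HSC replicate 2 or either DP array), with a median log2 change of -0.89. Rrp1b and Polr1b, a nucleolar protein and a subunit of RNA polymerase I, fell by 2.28 ± 0.18 and 1.84 ± 0.22. Wdr12, a large-subunit assembly factor, was the one that rose, by 0.54. The median of this list was -0.01 for ProT against HSC and -0.91 for DP against ProT.

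Of 29 genes of sterol and fatty acid synthesis, which cells need for new membranes, 28 fell, with a median log2 change of -1.81. Scd1, the desaturase that makes oleic acid, was at 11.86 and 11.88 in HSC, 12.17 and 12.32 in ProT and 7.14 and 7.27 in DP, a fall of 4.66 ± 0.088 and 25.4-fold lower. Cyp51 and Msmo1, demethylating enzymes of the later sterol pathway, fell by 3.21 ± 0.12 and 2.91 ± 0.17, Idi1, an isomerase of its early part, by 3.12 ± 0.27 and Sqle, which commits to sterols, by 2.81 ± 0.15. Hmgcs1, the synthase that feeds the pathway, was at 11.52 and 11.29 in HSC, 11.99 and 12.40 in ProT and 9.18 and 9.10 in DP. Srebf2, which encodes the sterol sensing factor SREBP2, fell by 0.53 ± 0.10, a call lost without DP replicate 2, and Srebf1 did not pass, with 10.16 and 9.94 in HSC and 10.05 and 9.99 in DP. The list's median was 0.16 for ProT against HSC and -1.83 for DP against ProT.

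The upstream windows of 3 of these genes are shown because the list fell almost as a whole. Capitals mark CCAAT, or ATTGG on the other strand, the letters of the CCAAT box bound by NF-Y, and TCACNCCAC, the letters of a sterol regulatory element, on either strand. The marked letters of both motifs do not overlap in these windows. They are from RefSeq on GRCm38.p6, with Hmgcs1 at chr13:119690101-119690350 and Idi1 at chr13:8885356-8885605 on the plus strand and Msmo1 at chr8:64733579-64733828 on the minus strand.
Hmgcs1: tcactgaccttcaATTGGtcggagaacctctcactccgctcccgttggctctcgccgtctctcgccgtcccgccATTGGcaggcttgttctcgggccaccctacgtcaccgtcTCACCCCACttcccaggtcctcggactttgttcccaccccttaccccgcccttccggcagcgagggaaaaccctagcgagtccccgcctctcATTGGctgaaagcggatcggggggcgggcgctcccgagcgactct
Msmo1: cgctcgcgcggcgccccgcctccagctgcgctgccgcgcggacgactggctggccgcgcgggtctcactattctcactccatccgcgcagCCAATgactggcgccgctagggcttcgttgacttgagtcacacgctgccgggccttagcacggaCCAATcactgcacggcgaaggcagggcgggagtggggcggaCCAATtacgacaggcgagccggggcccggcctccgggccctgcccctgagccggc
Idi1: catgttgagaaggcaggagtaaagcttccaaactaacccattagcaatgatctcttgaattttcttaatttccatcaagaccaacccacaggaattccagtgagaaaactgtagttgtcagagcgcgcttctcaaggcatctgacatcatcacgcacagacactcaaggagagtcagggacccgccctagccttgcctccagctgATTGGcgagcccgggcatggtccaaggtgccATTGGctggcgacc
CCAAT occurred 3 times in the windows of Hmgcs1 and Msmo1 and 2 times in that of Idi1, and TCACNCCAC once, in that of Hmgcs1. Of the 29 measured genes 23 had a window, and 18 of these (78.3%) held CCAAT, beside 34.5% of all promoters. TCACNCCAC was in 1 of 23 (4.35%), beside 1.04% of all. The granule genes held CCAAT in 37.5% of their windows, and the sterol genes held GAGGAA in 17.4%. Among called genes at least 4-fold lower in DP the share with CCAAT was 34.8%, close to that of all promoters. Of the other letters scanned, TGTGGT was in a larger share of the sterol windows than of all promoters, and AGATAA and CACCTG in a smaller one. These shares were not tested either.

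Glycolytic and pentose phosphate genes fell in 18 of 27 cases, and 1 rose, a median log2 change of -1.03. Aldoc, an aldolase, fell from 11.93 and 11.49 to 6.82 and 6.73, 30.6-fold lower, and the hexokinases Hk3 and Hk2 by 3.63 ± 0.12 and 3.16 ± 0.17. Slc16a3, the lactate exporter MCT4, fell by 3.45 ± 0.31. Ldhb, the lactate dehydrogenase form that favours the use of lactate, was the one that rose, 5.82 and 5.94 in HSC, 5.96 and 5.81 in ProT and 10.61 and 10.60 in DP, 26.4-fold higher, with 1 of the 2 HSC arrays at background. Ldha, the form that favours its production, fell by 0.48 ± 0.070 and stayed above 13 in DP, at 13.13 and 13.07.

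Of 42 oxidative phosphorylation genes, which make most ATP of resting cells, 16 fell (10 without either ProT array, 5 without DP replicate 1 and 2 without DP replicate 2), and the 95% intervals of 39 lay within 2-fold. Sdhd, a subunit of complex II, had the largest fall, 0.86 ± 0.13, and the median of the list was -0.27. The medians of the sterol and glycolytic lists, -1.81 and -1.03, lay further from 0. Of the TCA cycle and mitochondrial import genes 20 of 32 fell (13 without either DP array), led by Suclg2, a subunit of succinyl-CoA synthetase, by 2.20 ± 0.072.

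Genes of tRNA charging and amino acid supply fell in 26 of 36 cases (17 without DP replicate 2) and rose in 3. Asns, the asparagine synthetase, was at 12.37 and 12.54 in HSC, 10.68 and 11.11 in ProT and 6.73 and 6.33 in DP and fell by 5.93 ± 0.19, 60.9-fold lower, which places it among the 12 largest falls of the whole path. Slc7a5, a carrier of large neutral amino acids, and Psat1, an enzyme of serine synthesis, fell by 1.93 ± 0.13 and 1.90 ± 0.074. Slc7a11, the cystine carrier, rose by 2.95 ± 0.35, from 7.76 and 8.94 to 11.35 and 11.24. Across the whole solute carrier family, 52 of 364 genes (14.3%) rose and 86 (23.6%) fell (54 without DP replicate 2), near the 16.0% and 18.8% of all genes.

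The counts of chromatin regulators are set beside the 16.0% of all genes that rose and the 18.8% that fell, and differences between their lists were not tested. Of 46 histone methylases and demethylases 19 (41.3%) rose (11 without DP replicate 1, 12 without DP replicate 2) and 5 fell (3 without DP replicate 2), and the largest rise was that of Kdm1b, a demethylase, 1.58 ± 0.083. Kmt5b and Kmt2c, methylases of H4K20 and H3K4, rose by 1.41 ± 0.13 and 1.40 ± 0.11, and Smyd2 fell by 2.28 ± 0.12. Of 32 Polycomb genes 6 rose (3 without DP replicate 1) and 6 fell, 18.8% each and near the shares of all genes, while Ezh2, the H3K27 methylase, did not pass, with 12.03 and 12.07 in HSC and 12.35 and 12.34 in DP and a 95% interval of 0.045 to 0.55. Yaf2, a partner of the RING1 complexes, fell by 1.66 ± 0.12. Acetylases and deacetylases rose in 13 of 32 cases (7 without either DP array) and fell in 6, with Hdac7, a thymocyte deacetylase, at 10.77 and 10.46 in HSC and 12.17 and 12.16 in DP and Kat6b, an acetylase, rising by 1.83 ± 0.091.

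Among SWI/SNF, CHD and architecture factors 15 of 41 rose (7 without DP replicate 1, 8 without DP replicate 2) and 3 fell (5 without either ProT array). Satb1, which folds chromatin in thymocytes, rose by 4.08 ± 0.21, from 9.79 and 9.09 to 13.51 and 13.53, and the remodeller Chd7 fell by 2.23 ± 0.16. Of 24 DNA methylation and TET genes 6 rose and 9 fell (5 without either DP array). Tet1, which oxidises methylcytosine, rose by 1.52 ± 0.23 while Tet2 fell by 0.92 ± 0.22 (a call lost without either DP array), and the methylase Dnmt3b fell by 1.89 ± 0.14. Idh1, which makes the cofactor of these oxidases, fell by 2.41 ± 0.11.

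Survival genes split within their family, 9 of 25 BCL2 family and death receptor genes rising and 8 falling. Bcl2l1, which encodes the BCL-XL that keeps double positive cells alive, rose by 2.83 ± 0.092, from 8.39 and 8.21 to 11.18 and 11.08, while Bcl2, the survival factor of progenitors and mature T cells, fell by 0.69 ± 0.14, a call lost without either DP array. Fas, a death receptor, was at 7.14 and 7.77 in HSC, 5.37 and 5.22 in ProT and 9.80 and 9.87 in DP. The pro-apoptotic genes Bmf and Bcl2l11 rose by 1.98 ± 0.15 and 1.06 ± 0.12 and Bak1 fell by 1.05 ± 0.14.

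Immediate early and heat shock genes rose in 10 of 28 cases and fell in 7 (3 without DP replicate 1, 2 without DP replicate 2). Btg2, an inhibitor of division, rose by 3.48 ± 0.18, and Egr2 and Nr4a1, targets of receptor signals, by 2.95 ± 0.38 and 2.74 ± 0.11. Fos and Jun, which pair as the AP-1 factor, did not pass. Fos had 6.98 and 6.87 in HSC and 6.73 and 6.64 in DP. Jun had 9.14 and 9.501 in HSC and 9.63 and 9.64 in DP. Type I interferon genes rose in 11 of 28 cases (39.3%) and fell in 8 (28.6%), against 16.0% and 18.8% of all genes. Of genes above background, as 26 of the 28 were, 21.6% rose and 26.6% fell, so the share of falls was near that. Ifit3 and Ifit1, which block foreign RNA, rose by 2.32 ± 0.21 and 2.17 ± 0.19, and Eif2ak2, a sensor kinase, fell by 1.44 ± 0.17.

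MHC class II and dendritic cell genes rose in 11 of 21 cases (7 without DP replicate 2) and fell in 4 (2 without either DP array). The rises were 52.4% of this list and the falls 19.0%, against 16.0% and 18.8% of all genes. H2-Aa, a class II chain, was at 5.80 and 5.40 in HSC, 11.33 and 11.01 in ProT and 10.68 and 10.59 in DP. Cd74, the invariant chain, was at 6.64 and 7.35 in HSC, 11.43 and 11.05 in ProT and 10.69 and 10.64 in DP. The difference between DP and ProT did not pass for either gene. The class II genes H2-Ab1 and H2-Eb1 rose by 3.16 and 2.77, the first not called without DP replicate 2, while H2-DMa, which loads peptides, fell by 1.15. B lineage genes rose in 14 of 20 cases (9 without either DP array), by a median of 0.64, and the 3 B cell markers given above are part of this count. Ralgps2, the largest, had 8.15 and 7.65 in HSC, 9.61 and 9.90 in ProT and 10.16 and 10.20 in DP. Ms4a1, which encodes CD20, had 4.52 and 4.48 in HSC, 4.43 and 4.37 in ProT and 6.21 and 6.19 in DP, close to background in DP.

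Thymic epithelial and stromal genes rose in 19 of 29 cases and fell in 1 (2 without either HSC array), with a median log2 change of 0.57. Tbata, a gene of thymic epithelium, had 5.45 and 5.37 in HSC, 5.46 and 5.40 in ProT and 8.57 and 8.76 in DP. Dcn, a matrix protein of fibroblasts, had 4.97 and 4.94 in HSC, 4.96 and 4.85 in ProT and 7.66 and 7.68 in DP, so both were at background in HSC and in ProT. Prss16, the protease of cortical epithelium, rose by 2.27 ± 0.086. The list's medians were -0.02 for ProT against HSC and 0.50 for DP against ProT.

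MicroRNA genes, whose short products lower the mRNAs they pair with, were looked at after their values had been seen. The probe sets read the hairpin region or its primary transcript and not the mature molecule. Of 297 measured microRNA genes 55 (18.5%) rose (29 without DP replicate 1, 24 without DP replicate 2), near the 16.0% of all genes, and 11 (3.7%) fell (4 without either DP array), against 18.8% of all genes, with a median log2 change of 0.06. Only 114 of the 297 were above background, and the list's median signals on the HSC arrays, 5.28 and 5.3, lay below that level. A gene at background in HSC can hardly be seen to fall, so the low share of falls cannot be compared with that of all genes. The mature sequences of those with the largest changes that share a seed are shown, from RefSeq on GRCm38.p6, 5′ to 3′ with the seed, bases 2 to 8, in capitals. RefSeq gave a mature sequence for 271 of the 297 genes.
mmu-miR-181a-5p: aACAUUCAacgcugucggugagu
mmu-miR-181b-5p: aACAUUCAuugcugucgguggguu
mmu-miR-181c-5p: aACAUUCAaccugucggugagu
mmu-miR-181d-5p: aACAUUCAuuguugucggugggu
mmu-miR-15a-5p: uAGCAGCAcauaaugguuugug
mmu-miR-15b-5p: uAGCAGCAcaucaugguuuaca
mmu-miR-16-5p: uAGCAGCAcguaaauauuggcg
mmu-miR-221-3p: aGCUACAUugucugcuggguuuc
mmu-miR-222-3p: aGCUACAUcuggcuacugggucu
All 6 measured genes whose products carry the miR-181 seed rose. Mir181b-1 had 7.78 and 8.63 in HSC, 8.66 and 9.07 in ProT and 12.66 and 12.73 in DP, a rise of 4.49 ± 0.29. Mir181a-1, its neighbour on chromosome 1, had 4.77 and 4.88 in HSC, 4.74 and 4.65 in ProT and 8.94 and 8.77 in DP, a rise of 4.03 ± 0.093. The second cluster, Mir181a-2 and Mir181b-2, rose by 1.14 ± 0.16 and 1.61 ± 0.31, and the third, Mir181c and Mir181d, by 0.58 ± 0.14 and 0.49 ± 0.11. Of these, Mir181b-2 and Mir181c were not called without either DP array, and Mir181c and Mir181d not without HSC replicate 2, Mir181d also not without DP replicate 2. miR-181a is known in thymocytes for raising sensitivity to receptor signals by lowering phosphatases. Of 6 genes with the miR-15 and miR-16 seed 3 rose, Mir15b by 2.63 ± 0.22, Mir15a by 1.62 ± 0.19 and Mir16-2 by 1.27 ± 0.080, the last to 5.82 and 5.76, below background. Mir221 and Mir222, which share a seed and are known in progenitors for lowering KIT, fell by 1.69 ± 0.22 and 0.72 ± 0.15, the second not called without DP replicate 1.

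Where ProT lay between both ends was tested against the midpoint of HSC and DP. Its mean differed from the midpoint for 4185 genes (21.0%), above it for 2358 (11.8%) and below it for 1827 (9.16%), and the total was 2138 without DP replicate 1, 2059 without DP replicate 2 and 2373 without ProT replicate 1. Among the 25 double positive genes ProT lay below the midpoint for 17 and above it for 3, and among the 5 receptor chains it lay above it for 4. Among the 26 granule proteins it lay below the midpoint, on the DP side, for 19 and above it for 4, whereas among the 29 sterol genes it lay above it, on the HSC side, for 28. The median for granule proteins was -3.17 for ProT against HSC and -3.23 for DP against HSC, and for sterol genes 0.16 and -1.81. Both comparisons share the HSC arrays.

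**Figure D4:**
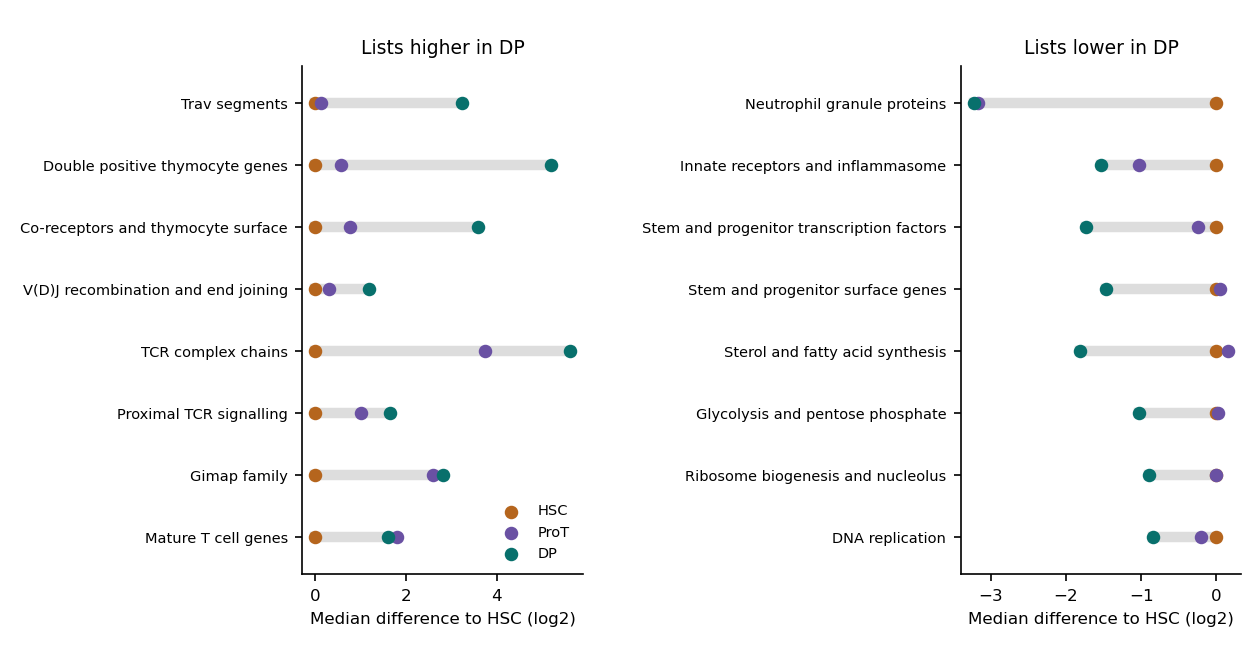
Median log2 difference to HSC of the members of 16 gene lists in ProT (purple) and DP (teal), with HSC (brown) at 0. Granule proteins have reached -3.17 in ProT of -3.23 in DP, whereas double positive genes stand at 0.57 of 5.19 and sterol genes at 0.16 of -1.81.

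Some genes called over the whole path had a 95% interval of DP against ProT within 2-fold, and the 6 with the largest rises from HSC to ProT were Cd3g, Cd3e, Txk, Gata3, H2-Aa and Plxdc2. Plxdc2, a membrane protein, had 5.85 and 5.95 in HSC, 11.11 and 11.57 in ProT and 11.48 and 11.55 in DP. Among the falls of this kind were Saa3, Adgrl4, Hp, Tfec, Gatm and Anxa3, of which Saa3 had 11.84 and 12.29 in HSC, 5.42 and 5.08 in ProT and 5.22 and 5.18 in DP. Gatm, an enzyme of creatine synthesis, had 12.27 and 12.68 in HSC, 7.505 and 6.90 in ProT and 7.63 and 7.42 in DP. Of called genes with a 95% interval of ProT against HSC within 2-fold, those with the largest rises from ProT to DP were Dntt, Cd4, Cd8a, Cd8b1, Cd2 and Sh2d1a, with Cd4 at 5.88 and 5.80 in HSC, 6.06 and 5.94 in ProT and 12.87 and 12.84 in DP. Those with the largest falls were Cd34, Scd1, Ifitm1, Ak4, Mlkl and Napsa. Ifitm1, an interferon-inducible membrane protein, had 13.47 and 13.56 in HSC, 13.72 and 13.70 in ProT and 8.02 and 7.85 in DP. Mlkl, the effector of necroptosis, had 10.41 and 10.37 in HSC, 9.79 and 9.97 in ProT and 5.88 and 5.501 in DP.

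**Figure D5:**
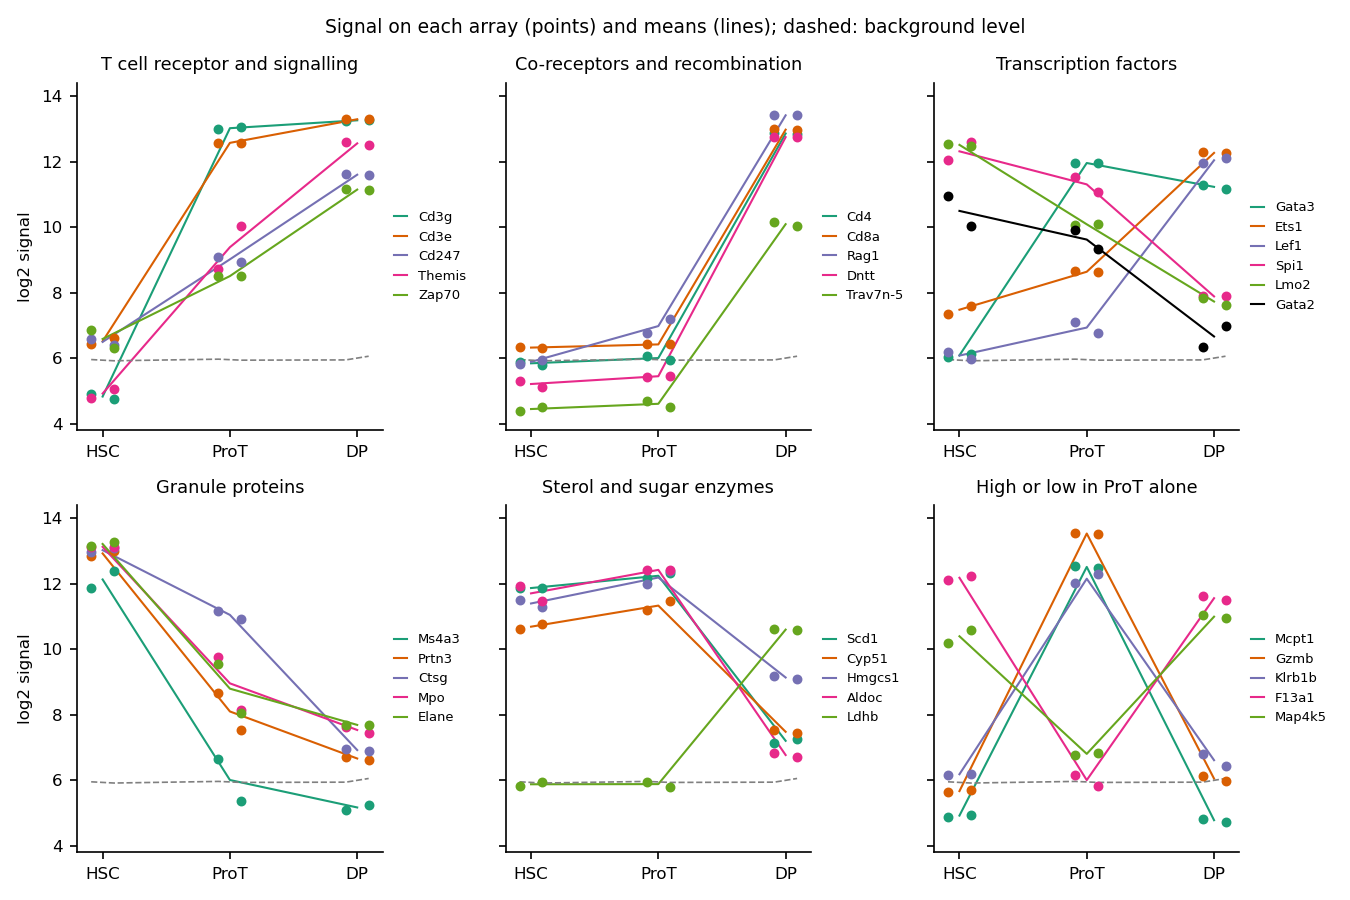
Log2 signal on each of the 6 arrays for genes named in the text, with 2 points per population, lines through the means and the background level dashed. Cd3g and Cd3e are near their DP signal in ProT, Cd4, Cd8a, Rag1 and Dntt rise after ProT, and Mcpt1, Gzmb and Klrb1b are high in ProT while both ends of the path are low.

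Some genes differed in ProT and little between both ends. Among genes with a 95% interval of DP against HSC within 2-fold, those furthest above the midpoint in ProT were Mcpt2, Mcpt1, Gzmb, Mcpt4, Cyp11a1 and Klrb1b. Mcpt1, a mast cell protease, had 4.89 and 4.96 in HSC, 12.55 and 12.48 in ProT and 4.83 and 4.74 in DP, 7.66 above the midpoint on the log2 scale (adjusted p = 8.23e-07). Gzmb, a protease of killer cells, had 5.65 and 5.69 in HSC, 13.55 and 13.52 in ProT and 6.13 and 5.97 in DP. Cyp11a1, the first enzyme of steroid hormone synthesis, had 6.06 and 5.37 in HSC, 11.70 and 11.51 in ProT and 5.77 and 5.83 in DP. All 3 were thus high on both ProT arrays alone. Those furthest below were F13a1, Map4k5, Ctse, Slco3a1, Erc1 and Tctex1d1, of which F13a1, a clotting factor chain made by monocytes, had 12.13 and 12.24 in HSC, 6.17 and 5.84 in ProT and 11.63 and 11.496 in DP. F13a1 fell by 0.62 ± 0.13 between both ends, a call lost without either DP array. Of the 24 NK and innate lymphoid genes ProT lay above the midpoint for 18, and 9 rose and 3 fell between both ends, with Gzma at 5.39 and 5.47 in HSC, 13.04 and 13.12 in ProT and 9.62 and 9.77 in DP. Mast cell and basophil genes fell in 8 of 16 cases between both ends, and ProT lay above the midpoint for 10.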

How the data were processed

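Total RNA from 3 populations, 2 samples each, was labelled with biotin and read on 6 Affymetrix mouse gene arrays. The deposited values are log2 signals summarised by the authors with RMA in Partek, per the submitters' processing notes, which give no versions. RMA commonly sets the distribution of the arrays alike, so a shift of most genes in 1 direction may not be seen, and it compresses dim signals. The deposited values were not fully alike. Their medians over all probe sets were 6.73 and 6.77 in HSC, 6.73 and 6.73 in ProT and 6.90 and 6.91 in DP.

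Of 35556 probe sets 21789 were linked to 1 gene, 1621 to several and 12146 to none, by the platform annotation. The 19939 genes were each read by 1 probe set, that of the highest 6-array mean where a gene had more than 1 (998 genes). All 6 arrays entered 1 limma fit with a mean per population (limma 3.58.1, R 4.3.3), with Benjamini-Hochberg adjustment over all genes, a threshold of 0.05 and no filter on dim genes. Figures and summaries used Python 3.11.15 with pandas 2.3.3. Errors are moderated standard errors, and 95% intervals come from the same fit. Tested on simulated data for DP against HSC over 19939 genes, the fit recovered 42%, 72%, 92% and 98% of 50 genes each changed by 0.5, 1, 2 and 4 on the log2 scale, and 5 of 157 calls (3.18%) were false. Far fewer genes were changed in the simulation than the 34.9% called in the real data, and its noise was independent and normal. Its recovered and false shares therefore do not carry over to the real calls. With 2 arrays per population the number of arrays limits the precision.

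The comparison, the gene lists and their members were chosen with earlier results of these data known. List members without a probe set of their own were not analysed here. The genes named are the 12 largest rises and falls with higher mean at or above the median of all gene values and predicted genes passed over, up to 6 called and 3 not passing members of each list or family, the cell type markers, the 6 genes furthest from the midpoint in ProT on each side with ends within 2-fold, and the 6 largest of each direction in each step with the other step within 2-fold. Apoe, Bak1, Bcl2, C1qc, Ccnd3, Ccr1, Cd53, Cdkn1b, Cdkn2c, Cdkn2d, Ctsl, Ezh2, Fos, H2-DMa, Hes1, Hmgcs1, Hoxa5, Hoxa6, Il6st, Jun, Ldb1, Ldha, Lipa, Mir16-2, Mir181a-2, Mir181b-2, Mir181c, Mir181d, Mir222, Mki67, Mxd3, Myc, Notch2, Nrarp, Nup98, Poll, Pycard, Rb1, Rbl2, Rpa1, Runx1, Runx3, Slamf6, Sox4, Srebf2, Wdr12, Zap70 and Zbtb7b were named outside this rule, after their values were seen. Promoter windows, microRNA sequences and their coordinates are RefSeq's. The alternatives were the scaling between arrays, filters on dim genes, the probe set of a gene, the variance prior, the arrays in the fit, the threshold, a minimum change, the replicate number as a block, the background level and leaving out each array.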

Additional observations from a re-analysis of the deposited data

Results flagged for a closer look

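Probe sets that the comparison of genes did not use also differed between both ends of the path. Of 12146 probe sets with no gene listed 2532 (20.8%) were called higher in DP than in HSC and 747 (6.15%) lower, in the limma fit over every probe set, with a median log2 change of 0.11. Their median signal was 6.11 and 6.21 on the HSC arrays, 6.06 and 6.09 on the ProT arrays and 6.49 and 6.48 on the DP arrays. Of 1621 probe sets assigned to several genes 258 (15.9%) were called higher and 135 (8.33%) lower. Among the 21789 probe sets of 1 gene in the same fit 3163 (14.5%) were called higher and 3798 (17.4%) lower.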

How the results depend on the processing

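Of 230 called genes named in the text, 20 lost their call without DP replicate 1, 21 without DP replicate 2, 33 against a minimum log2 change of 0.5 and 19 at an adjusted p below 0.01, and no called one changed direction under any alternative run. The called rises were 5953 and those of at least 2-fold 2253 when every probe set was tested on its own, which moved the share of rises among calls from 46.0% to 56.0%. A minimum log2 change of 0.5 left 1162 rises, 1771 falls and 1040 genes off the midpoint, and an adjusted p below 0.01 left 2060 rises and 2001 genes off the midpoint. Genes within 2-fold numbered 6424 among genes at or above the median, 9595 among genes above the receptor background and 26534 among all probe sets, where fewer or more features were tested. Over the fits without 1 array the rises ranged from 1940 (without DP replicate 2) to 3188 (without ProT replicate 1 or without ProT replicate 2), the falls from 2361 (without DP replicate 2) to 3862 (without HSC replicate 1) and the genes off the midpoint from 2059 (without DP replicate 2) to 5233 (without HSC replicate 1). The share of rises among calls was 42.1% after quantile normalization, 42.6% after cyclic loess and 49.6% after median centring.

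Deviations of same-numbered arrays correlated at 0.058 (HSC with ProT), -0.022 (HSC with DP) and -0.043 (ProT with DP). Whether same-numbered arrays shared a culture, animal or batch cannot be read from these values, since a shared source may affect few genes. The labels do not give it either. A fit with the replicate number as a block gave 3060 rises and 3697 falls and lost the call of 0 of the named genes.

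Of the named genes 14, none of them called, changed sign. After quantile normalization the log2 difference was 0.04 for Cblb, -0.04 for Cyp11a1, -0.02 for Mcpt4, 0.02 for Srebf1 and 0.03 for Tnfaip8. After median centring the log2 difference was 0.03 for Cblb, 0.03 for Procr, 0.01 for Srebf1 and 0.01 for Tnfaip8. After cyclic loess the log2 difference was 0.06 for Cblb, -0.02 for Cyp11a1, -0.08 for Mcpt4, 0.03 for Srebf1 and 0.02 for Tnfaip8. With the mean of all probe sets the log2 difference was 0.36 for Tnfaip8. Without 1 array the range of the log2 difference was -0.04 to 0.20 for Ctse, -0.06 to 0.17 for Mcpt4, -0.38 to 0.02 for Prkdc, -0.09 to 0.17 for Ptpn6, -0.39 to 0.09 for Socs2, -0.14 to 0.08 for Srebf1, -0.15 to 0.14 for Cblb, -0.26 to 0.43 for Cyp11a1, -0.03 to 0.72 for Itgb7, -0.76 to 0.05 for Lyz1, -0.09 to 0.25 for Rpa1, -0.49 to 0.35 for Tctex1d1, -0.12 to 0.07 for Tnfaip8 and -0.06 to 0.04 for Procr. With the median of all gene values as background the folds of 45 named genes whose dimmer population was at background were 2.24 to 2.35 times smaller. With 2 arrays per population, small changes of genes near background may not have been detectable.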

Other observations

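Zinc finger genes named Zfp, most of which encode DNA-binding repressors, were called in 38.9% of cases, against 34.9% of all genes. Of genes above background 48.3% were called. Of 347 measured members 95 (27.4%, against 16.0% of all genes) rose (42 without DP replicate 1, 52 without DP replicate 2) and 40 (11.5%, against 18.8%) fell (21 without DP replicate 1, 17 without DP replicate 2), and 19 of the rises reached 2-fold. Zfp882 had the largest rise, 2.03 ± 0.13, from 5.91 and 6.01 to 8.04 and 7.95. Zfp846 rose by 1.78 ± 0.16 and Zfp667 by 1.77 ± 0.14.

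Schlafen genes, which are known to restrain lymphocyte division, split within the family, 4 of 9 rising (2 without either DP array) and 2 falling (1 without HSC replicate 2, 0 without either DP array). The rises were 44.4% of the family and the falls 22.2%, against 16.0% and 18.8% of all genes. Of genes above background 21.6% rose and 26.6% fell. Slfn2, which keeps T cells quiescent, had 9.61 and 9.90 in HSC, 10.17 and 9.70 in ProT and 11.06 and 11.03 in DP, a rise of 1.29 ± 0.18. Slfn5 rose by 1.64 ± 0.15, and Slfn9 fell by 1.04 ± 0.24.

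Erythroid and megakaryocyte genes fell in 6 of 16 cases (3 without either DP array) and rose in 1 (3 without HSC replicate 1), the last being the heme enzyme gene Alas2. The falls were 37.5% of the list and the rises 6.25%, against 18.8% and 16.0% of all genes. Of genes above background, as 13 of the 16 were, 26.6% fell and 21.6% rose. Tfrc, the transferrin receptor of dividing and red precursor cells, had 10.995 and 11.18 in HSC, 10.35 and 11.09 in ProT and 9.58 and 9.62 in DP, a fall of 1.49 ± 0.23. Pf4, a platelet chemokine also made by progenitors, fell by 1.31 ± 0.35.

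Among solute carriers the largest rise after Slc16a5 was that of Slc6a19, a carrier of neutral amino acids best known from gut and kidney. It had 5.58 and 5.60 in HSC, 5.502 and 5.52 in ProT and 10.69 and 10.66 in DP, at least 26.7-fold higher in DP than in HSC and at background in ProT. Slc9a9, a proton exchanger of endosomes, rose by 3.65 ± 0.12, and Slc37a2, a sugar phosphate carrier of myeloid cells, by 3.56 ± 0.094. Slc35f5 had the largest fall of the family, 3.54 ± 0.072, from 10.09 and 10.05 to 6.54 and 6.53.

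Of the mature T cell genes, the ProT mean lay above the midpoint between HSC and DP for 22 of 35 and below it for 3, at an adjusted p below 0.05 in limma, and the others did not pass that test.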
